A study of Pan troglodytes and Macaca mulatta with 12 samples.

Results

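The genes described here encode the proteins of the cytosolic ribosome. They were chosen as a fixed list of 60 human Ensembl identifiers of RPL, RPS and RPLP genes, stated to include RPS16 and RPS23. The rule uses no measured value, but the list was set with earlier results of these data known. Counts were assigned to 18 of the 60, out of 16903 genes with a count in the series. The remaining 42 had no count in the files used here and were not analysed. RNA was sequenced from lymphoblastoid lines, B lymphocytes that have been immortalised and grow on in culture. There were 6 chimpanzee lines, 3 from females and 3 from males, and 6 rhesus macaque lines, of which 2 were female and 4 male. Each library was taken as a separate individual. All lines grew in serum-supplemented RPMI medium, and the labels name no treatment, genotype or age. Human lines named in the series design were not analysed here.

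The ribosome translates messenger RNA into protein. In the usual naming, RPL genes encode proteins of the large subunit, RPS genes those of the small subunit, and RPLP genes the acidic proteins of the stalk where translation factors bind. These proteins are needed in matched amounts, and their messenger RNAs are among the most abundant in growing cells, including dividing B cells. The short, abundant transcripts have also left many processed copies in primate genomes, so that reads from such a gene can resemble sequence elsewhere.

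Identifiers come without gene names, and 0 of the 16903 identifiers matched either name table, so no gene below is given a symbol, a subunit or a role of its own. Genes are called by the chromosome and the length of their counted exon, with coordinates as the files give them; their genome build was not stated. No sequence is printed, since none could be read for these identifiers.

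Library totals ran from 1434241 to 4751954 counts in chimpanzee and from 1801830 to 4600137 in rhesus macaque. Libraries within a species differed by more than counting noise, with a chi-square per degree of freedom of 15.6 for the closest pair. That value cannot tell separate individuals from separate preparations of the same line. Each library was taken as a separate replicate by its label. Levels are CPM, counts scaled to a library of 1000000 on TMM-scaled sizes, and fold changes are chimpanzee over rhesus macaque. The labelled cell type could not be checked against marker genes without names.

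The ribosomal protein genes rested on very little counted sequence. Of the 18 genes, 17 had 1 listed exon and 1 had 2, against a median of 4 exons per gene in the series and 24.2% of genes with 1. In chimpanzee all 19 exons were counted, in rhesus macaque 18. Every gene therefore had the same number of counted exons in both species except the 26-base exon on chromosome 3 (23933643 to 23933668), counted in chimpanzee alone. The exons had a median length of 122 bases, close to the 137 bases of all exons, but the counted length per gene had a median of 129 bases against 1383 bases over all genes. The genes lay on 9 chromosomes of the shared coordinates, and 0 of the 19 exons overlapped an exon of another gene. A level here is the reads assigned to that short stretch. Reads shared with a near-identical copy were not tested. Since each species is compared as a whole, a difference in transcript level and a difference in how its reads were assigned to the exon cannot be told apart here, and neither can fewer expressing cells and less RNA per cell in these bulk libraries.

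Set per length, these genes spread over a wide range, described here by chosen cuts at 1000 and 100 CPM per kb. In chimpanzee 6 genes stood above 1000 CPM per kb of counted exon and 11 below 100; in rhesus macaque 5 stood above 1000 and 11 below 100. The median of all tested genes was 27.1 CPM per kb in chimpanzee and 25.6 in rhesus macaque, well below the lower cut. Of the ribosomal protein genes, 11 and 10 stood above these medians. The 18 include 8 genes with too few counts for a test, while the medians cover tested genes only. For tested genes with 1 listed exon the medians were higher, 35.8 in chimpanzee and 37.0 in rhesus macaque. Both species shared 4 genes above 1000. The highest level per length belonged to the 146-base exon on chromosome 8 (99126347 to 99126492), at 4642 CPM per kb in chimpanzee and 5081 in rhesus macaque, above 99.9% of tested genes in both. Next came the 151-base exon on chromosome 1 (23891686 to 23891836), at 4105 and 5064 CPM per kb. In contrast, the 573-base exon on chromosome 8 (74368655 to 74369227) held 1.80 and 6.05 CPM per kb, above 4.17% and 15.9% of tested genes. The genes below 100 CPM per kb in both species numbered 9.

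**Figure D1:**
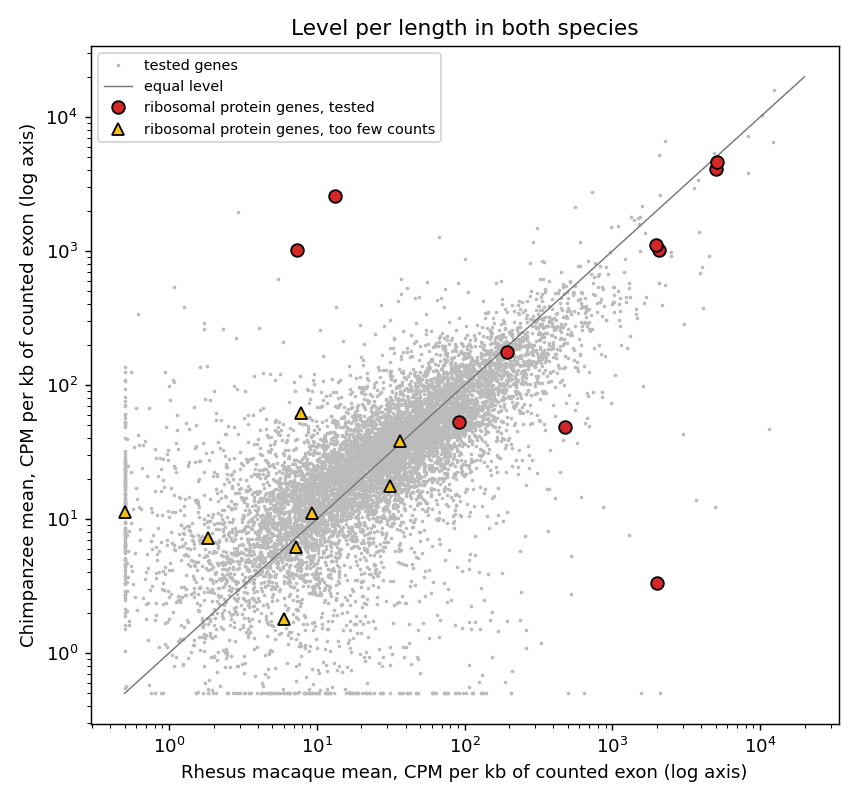
Mean level per length of the 18 ribosomal protein genes (large symbols) and of the tested genes (grey), in CPM per kb of counted exon, rhesus macaque on the horizontal and chimpanzee on the vertical log axis; values below 0.5, zeros included, are drawn at 0.5. The 4 genes high in both species sit near the line of equal level at the upper right, while 2 genes above 1000 in chimpanzee and 1 in rhesus macaque lie far off it.

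Levels of single genes were compared between the species with edgeR's quasi-likelihood test over all 9440 genes with enough counts. Of the ribosomal protein genes, 10 were tested and 8 had too few counts. Among the 10, 2 were higher and 4 lower in chimpanzee at an adjusted p under 0.05, and 4 did not pass. The background is high: 48.3% of all tested genes passed, 24.7% higher and 23.6% lower in chimpanzee. Of the 790 tested genes with 1 listed exon, 51.6% passed. A difference beyond 2-fold, tested with glmTreat, was called for 4 of the 10, 2 in each direction, against 17.3% of all tested genes (8.77% higher and 8.56% lower in chimpanzee) and 24.1% of those with 1 listed exon. In 5 of the 10 the libraries of the species did not overlap, 2 with chimpanzee above and 3 with rhesus macaque above. Over all tested genes this was so for 27.1%, with chimpanzee above in 13.3% and rhesus macaque above in 13.8%. Not all genes had an equal chance of entering the test. In 2 of the 10, all 6 libraries of 1 species reached the filter's minimum of 3.97 CPM, but fewer than 3 of the other. The list was also set with earlier results of these data known. For both reasons the shares among the 10 are a description only. The median log2 fold change of the 10 was -0.52, against 0.04 for all tested genes, and the median size of the difference was 0.92 on the log2 scale against 0.71 for all tested genes and 0.94 for those with 1 listed exon.

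Differences of more than 100-fold were fitted for 3 genes, ENSG00000105193, ENSG00000137154 and ENSG00000171863. A fitted difference over 50-fold was found for 2.44% of tested genes, for 4.56% of those with 1 listed exon and for 2.24% of those with more. ENSG00000105193, counted on a 240-base exon on chromosome 19 (44616002 to 44616241), had 427 CPM in the lowest chimpanzee library, a median of 604 and a highest of 820. The rhesus macaque libraries ran from 1.22 through a median of 2.92 to 5.48 CPM, from 56 counts over the 6 libraries. Every chimpanzee library thus lay far above every rhesus macaque library. The gene reached the filter's minimum of 3.97 CPM in all 6 chimpanzee libraries but in only 2 of rhesus macaque. It thus entered the test through its chimpanzee libraries, and its adjusted p is a description only. The means were 621 ± 156 and 3.17 ± 1.63 CPM (SD, n = 6 each), which the fit put at 191-fold (log2 fold change 7.58, SE 0.35, edgeR adjusted p = 6.31e-09).

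ENSG00000137154 was counted on a 1464-base exon on chromosome 9 (19368772 to 19370235), close to the median counted length of all genes. Its chimpanzee libraries ran from 1222 through a median of 1518 to 1889 CPM, the highest level of the 18 genes. In rhesus macaque the lowest, median and highest were 4.88, 8.93 and 19.5 CPM. The groups did not overlap, and the chimpanzee lines lay within 1.55 times of each other. The means were 1505 ± 255 and 10.8 ± 5.81 CPM (SD, n = 6 each), a 134-fold difference (log2 fold change 7.07, SE 0.36, edgeR adjusted p = 1.51e-08). Unlike the gene before, it passed the filter's minimum in all 12 libraries.

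ENSG00000171863 went the other way. Counted on a 430-base exon on chromosome 2 (3605575 to 3606004), it had 535 CPM in the lowest rhesus macaque library, a median of 878 and a highest of 1194. In chimpanzee the lowest library held 0 counts, the median was 0.948 CPM and the highest 3.53 CPM, from 30 counts in all, 18 of them in replicate 6. All rhesus macaque libraries lay above all chimpanzee libraries. The chimpanzee mean was 1.43 ± 1.31 CPM against 869 ± 268 CPM (SD, n = 6 each), 519-fold lower in chimpanzee (log2 fold change -9.02, SE 0.52, edgeR adjusted p = 3.88e-08). Without chimpanzee replicate 6 the log2 fold change was -9.66, so the size of the fold depends on that library while the direction does not. Per length it stood above 99.7% of tested genes in rhesus macaque and above 7.31% in chimpanzee. It reached the filter's minimum of 3.97 CPM in all 6 rhesus macaque libraries and in 0 chimpanzee libraries. It thus entered the test only through the species where it is high, and its adjusted p is a description only.

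ENSG00000186468, on a 101-base exon on chromosome 5 (81609895 to 81609995), was the fourth gene beyond 2-fold. Its chimpanzee libraries held 0.410 CPM at the lowest, 4.46 at the median and 10.4 at the highest. The rhesus macaque libraries held 18.4, 37.5 and 99.2 CPM. The groups did not overlap, though both spread widely, over 25.4 times between chimpanzee lines and 5.39 times between rhesus macaque lines. The means were 4.91 ± 3.46 and 48.0 ± 29.9 CPM (SD, n = 6 each), 9.26-fold lower in chimpanzee (log2 fold change -3.21, SE 0.55, edgeR adjusted p = 2.87e-04). Each of the 4 genes kept its direction in every alternative fit that tested it, the 12 without 1 library included. The adjusted p also stayed under 0.05 in these fits. For ENSG00000105193 and ENSG00000171863, which entered the test through 1 species, that is a description only.

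**Figure D2:**
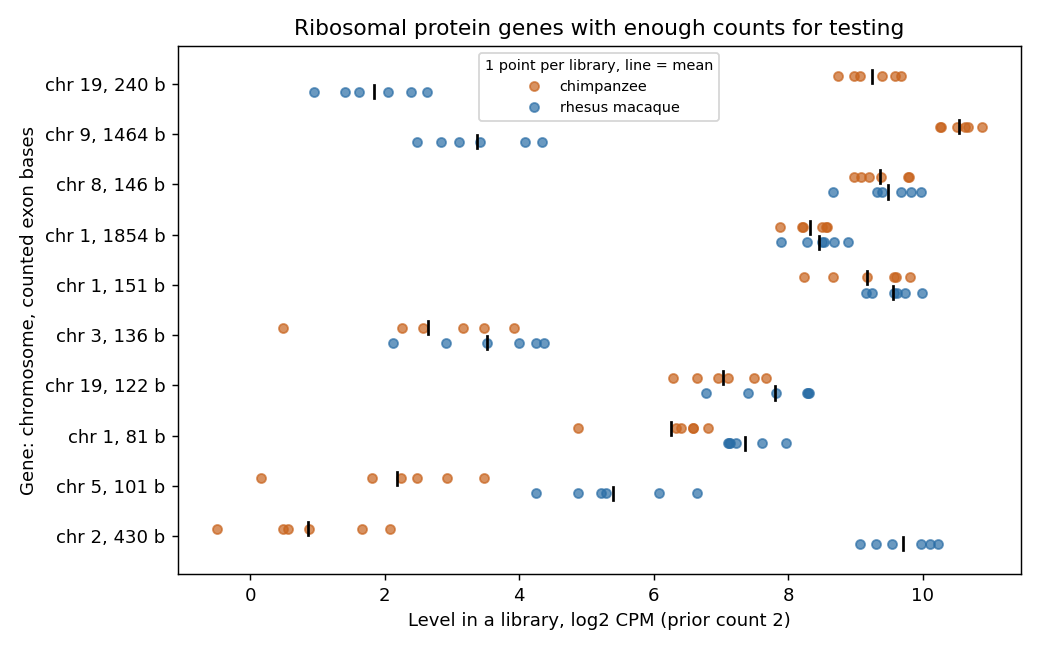
Level of the 10 tested ribosomal protein genes in each library, in log2 CPM (prior count 2), 1 point per library and a line at the species mean, with genes ordered by fold change and named by chromosome and counted bases. At the top and the bottom the chimpanzee and rhesus macaque points are far apart, and in the middle rows they share the same range.

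Smaller differences passed in 2 more genes, both lower in chimpanzee. The 81-base exon on chromosome 1 (93070182 to 93070262) ran from 28.6 through a median of 89.4 to 111 CPM in chimpanzee. In rhesus macaque it ran from 137 through 144 to 250 CPM, so that the groups did not overlap. The means of 82.3 ± 28.4 and 168 ± 45.5 CPM (SD, n = 6 each) made it 2.03-fold lower in chimpanzee (log2 fold change -1.02, SE 0.28, edgeR adjusted p = 0.00745). A difference beyond 2-fold was not called for it (glmTreat adjusted p = 0.648).

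The 122-base exon on chromosome 19 (63597861 to 63597982) had 77.4 CPM in the lowest chimpanzee library, a median of 130 and a highest of 203. The rhesus macaque values were 109, 267 and 315 CPM, and the groups overlapped. The log2 fold change was -0.81 with an SE of 0.29 (edgeR adjusted p = 0.0349). This call lies close to the threshold. It was lost when any of chimpanzee replicates 1, 2, 4 and 5 and of rhesus macaque replicates 2, 3 and 5 was left out, with adjusted p from 0.0575 to 0.0723 in those 7 edgeR fits, while the log2 fold change stayed between -0.81 and -0.70. It was also lost on total counts alone, where the log2 fold change was -0.71 (edgeR adjusted p = 0.0686).

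The other 4 tested genes did not pass, and 3 of them were measured with high counts. The 146-base exon on chromosome 8 averaged 678 ± 169 CPM over the chimpanzee lines and 742 ± 216 CPM over the rhesus macaque lines (SD, n = 6 each). Its chimpanzee libraries ran from 503 through 628 to 885 CPM and its rhesus macaque libraries from 404 through 746 to 1008 CPM, with wide overlap. The log2 fold change of -0.13 had a 95% interval from -0.63 to 0.37 (edgeR adjusted p = 0.670). The 151-base exon on chromosome 1 ran from 299 through 668 to 896 CPM in chimpanzee and from 572 through 773 to 1013 CPM in rhesus macaque. Its log2 fold change was -0.30, with an interval from -0.86 to 0.25 (edgeR adjusted p = 0.353). Both intervals lie apart from those of the 3 genes over 50-fold.

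The only gene with 2 listed exons lay on chromosome 1, with 1796 bases from 6167668 to 6169463 and 58 bases from 6182209 to 6182266. Its chimpanzee libraries ran from 234 through 331 to 383 CPM and its rhesus macaque libraries from 238 through 365 to 472 CPM. They overlapped almost fully, with a log2 fold change of -0.15 and an interval from -0.56 to 0.26 (edgeR adjusted p = 0.544). The fourth, the 136-base exon on chromosome 3 (40473834 to 40473969), was low and variable, from 0.698 through 6.75 to 14.5 CPM in chimpanzee and from 3.66 through 13.1 to 19.9 CPM in rhesus macaque. Its log2 fold change of -0.74 had an interval from -1.84 to 0.36 (edgeR adjusted p = 0.250), which includes changes of more than 2-fold.

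**Figure D3:**
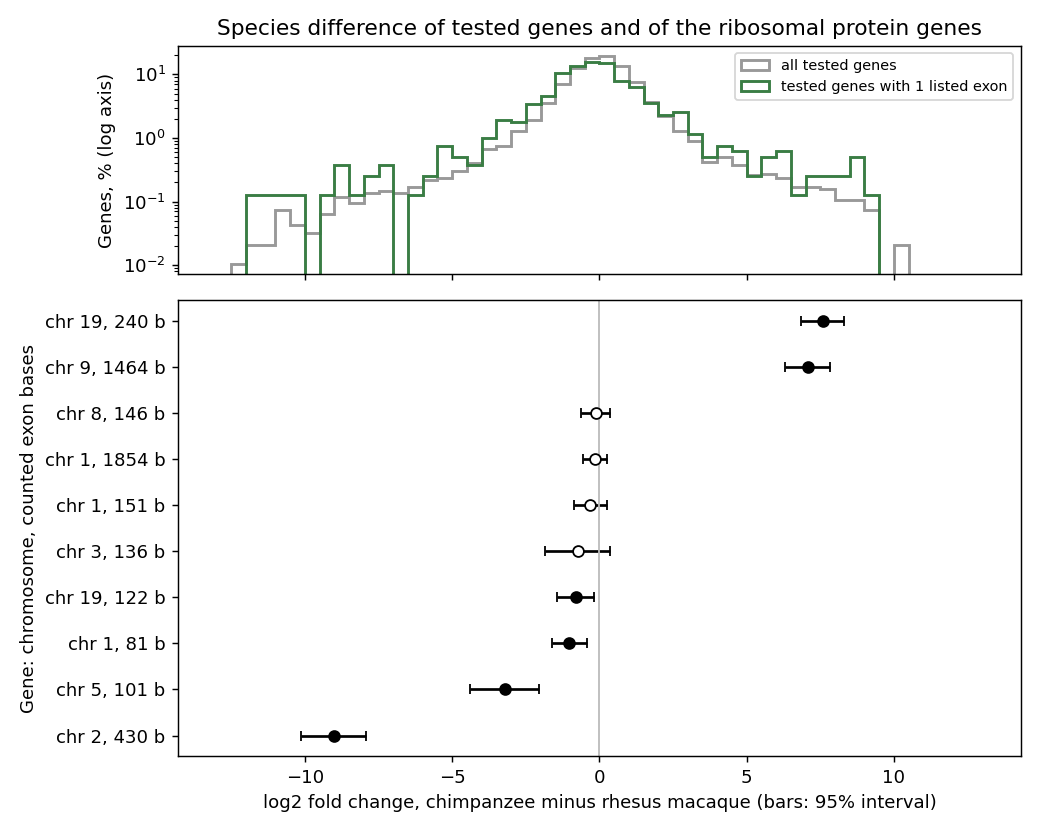
Upper panel, the percentage of all tested genes (grey) and of tested genes with 1 listed exon (green) in each bin of log2 fold change, on a log axis. Lower panel, log2 fold change of the 10 ribosomal protein genes with 95% intervals, filled where the adjusted p was under 0.05; 3 genes lie beyond 7 in size, 1 near -3, and 6 within about 1 of zero.

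The exons were also tested one by one, over all 90834 exons with at least 10 counts in the 12 libraries, which brings in genes too low for the gene test. Of the 18 exons of ribosomal protein genes that could be tested, 3 were higher and 5 lower in chimpanzee (edgeR quasi-likelihood test, exon-level adjusted p under 0.05), against 32.1% of all tested exons, 19.1% higher and 13.1% lower. The 6 genes called above were among the 8. Each of them has 1 listed exon, so both tests used the same counts and the repeat adds no evidence. The seventh, the 573-base exon on chromosome 8, had from 1 through 3 to 6 counts in a chimpanzee library and from 3 through 11.5 to 18 in a rhesus macaque library. In CPM these were 0.410 to 1.61 and 1.83 to 5.98, so that the groups did not overlap, with a log2 fold change of -1.68 and an SE of 0.46 (edgeR exon-level adjusted p = 0.00909). The eighth, the 89-base exon on chromosome 3 (12857993 to 12858081), had 140 chimpanzee counts and 10 rhesus macaque counts, but 112 of the 140 came from chimpanzee replicate 6. Its log2 fold change of 3.21 (edgeR exon-level adjusted p = 0.00498) fell to 1.82 without that library, where the call was lost (edgeR exon-level adjusted p = 0.0564).

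In the gene with 2 exons, the 58-base exon took 0.337% ± 0.186 of the gene's chimpanzee counts and 0.788% ± 0.341 of its rhesus macaque counts (SD, n = 6 each). Chimpanzee shares ran from 0 to 0.525% and rhesus macaque shares from 0.392% to 1.28%, and they overlapped. Relative to the whole gene, the use of this exon did not pass (edgeR diffSpliceDGE, Simes adjusted p = 0.589), against 4.24% of 9970 genes called in that test; the F test per gene, which called 16.4%, did not pass either (adjusted p = 0.123). With 19 chimpanzee counts and 42 rhesus macaque counts on this exon, its own level was not called (log2 fold change -1.23, edgeR exon-level adjusted p = 0.0813).

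The 6 other genes had few counts, and none was called in the exon test, which 1 of them did not enter. The 86-base exon on chromosome 3 (52004913 to 52004998) was the highest of them, with 62 chimpanzee counts, 43 rhesus macaque counts and means of 3.29 ± 1.87 and 3.14 ± 1.90 CPM (SD, n = 6 each). The 234-base exon on chromosome 22 (38045341 to 38045574) had 26 and 36 counts, and the 45-base exon on chromosome 5 (149809459 to 149809503) had 17 and 27. On chromosome 17, the 103-base exon (34263477 to 34263579) had 19 and 15 counts and the 91-base exon (8227200 to 8227290) had 15 and 4. All of these ranges overlapped between the species. The 26-base exon on chromosome 3 had 7 counts in chimpanzee, 5 of them in replicate 6, and 0 in rhesus macaque. It had too few counts for a test, and no fold is given, since most of its counts came from 1 library.

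Together the 18 genes took 0.409% ± 0.0706 of a chimpanzee library and 0.310% ± 0.0700 of a rhesus macaque library (SD, n = 6 each). Chimpanzee libraries ran from 0.337% to 0.503% and rhesus macaque libraries from 0.208% to 0.387%, so the species overlapped. The genes that made up the sum differed. In chimpanzee, ENSG00000137154 gave 36.5% of the sum and ENSG00000105193 gave 15.8%, while these took 0.398% and 0.105% of the sum in rhesus macaque. In rhesus macaque, ENSG00000171863 gave 25.3% of the sum, against 0.0440% in chimpanzee. Without ENSG00000137154, the gene with most counts, the order of the means turned, to 0.255% in chimpanzee and 0.309% in rhesus macaque. Leaving out these 3, the other 15 genes took 0.192% ± 0.0465 in chimpanzee and 0.226% ± 0.0533 in rhesus macaque, and their ranges overlapped.

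**Figure D4:**
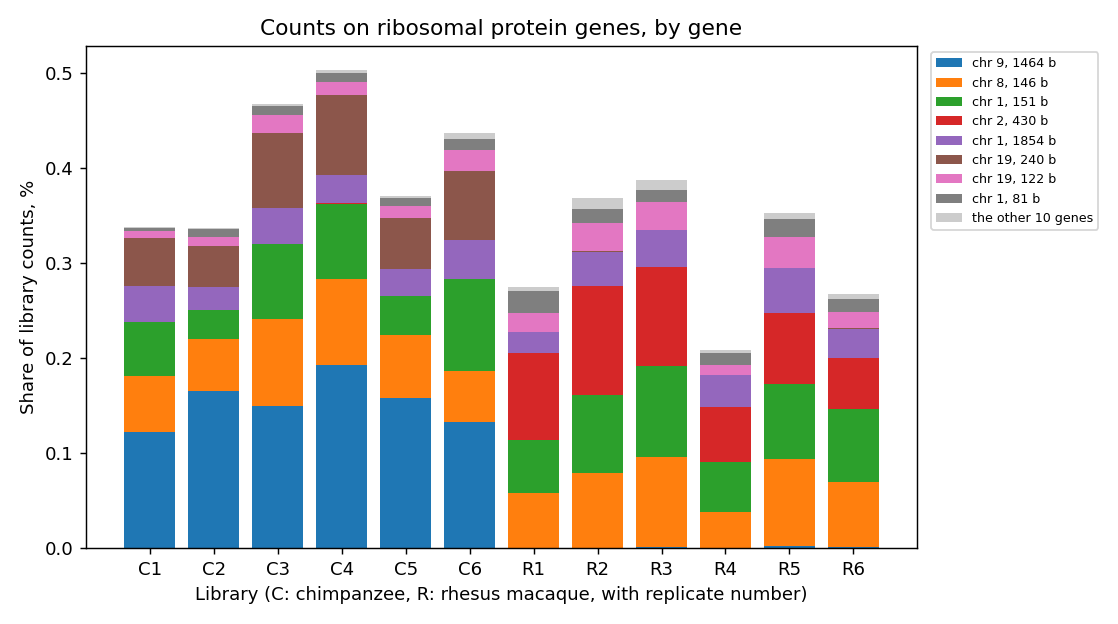
Share of library counts taken by the 18 ribosomal protein genes in each of the 12 libraries, stacked by gene, with the 10 genes of fewest counts joined. The heights overlap between the species, but the chromosome 9 and 240-base chromosome 19 blocks appear in chimpanzee (C) and the 430-base chromosome 2 block in rhesus macaque (R).

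Tested genes next to the 4 genes beyond 2-fold on the shared coordinates were set beside them. Over all tested genes 48.3% passed for species, 24.7% higher and 23.6% lower in chimpanzee, so a called neighbour is common. The gene 4.63 kb before ENSG00000137154, with 28 listed exons, had 59.3 CPM in the chimpanzee lines and 59.1 CPM in the rhesus macaque lines (edgeR adjusted p = 0.990). The gene 965 kb after it had a log2 fold change of -0.74 (edgeR adjusted p = 0.146). The genes 8.01 kb before and 11.9 kb after ENSG00000105193, with 15 and 25 listed exons, had log2 fold changes of -0.04 and -0.26 (edgeR adjusted p = 0.917 and 0.296). Neither neighbour showed the difference of more than 100-fold of the gene between them. The gene 21.8 kb before ENSG00000171863 was lower in chimpanzee too, but with a log2 fold change of -1.32 (edgeR adjusted p = 0.00794) against -9.02. The next tested gene after it, 3300 kb away, had 42.9 CPM in chimpanzee against 0.30 CPM, a log2 fold change of 7.20 (edgeR adjusted p = 4.36e-06). ENSG00000186468 lay between genes that were lower in chimpanzee as well. The gene that begins 1.04 kb after it, with 7 listed exons, had 0.220 CPM in chimpanzee against 641 CPM, a log2 fold change of -11.14 (edgeR adjusted p = 1.86e-08). The gene 24.9 kb before it had a log2 fold change of -1.46 (edgeR adjusted p = 0.0136). Among the other tested members, the gene 6.21 kb after the one with 2 exons had 24.2 CPM in chimpanzee against 0.21 CPM (log2 fold change 6.76, edgeR adjusted p = 1.53e-06). The gene 134 kb before the 151-base exon had -3.26 (edgeR adjusted p = 2.33e-05) and that 13.9 kb after the 122-base exon -1.42 (edgeR adjusted p = 0.0016). Their remaining neighbours ran from -0.60 to 0.93. Neighbours at 0.220, 0.30 and 0.21 CPM averaged below the filter's minimum of 3.97 CPM in that species. Their adjusted p-values are a description only.

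Between lines of 1 species, the 10 tested genes had a median SD of 0.57 on the log2 CPM scale in chimpanzee and 0.55 in rhesus macaque, against 0.48 and 0.45 for all tested genes. Without chimpanzee replicate 1 the chimpanzee value was 0.40. The steadiest between chimpanzees were ENSG00000137154, with an SD of 0.24, and the gene with 2 exons, with 0.28. The least steady was the 136-base exon on chromosome 3, with 1.22, from 1 to 74 counts in a chimpanzee library. In rhesus macaque the lowest SD was 0.31, for the 151-base exon on chromosome 1. The highest was 0.87, again for the 136-base exon on chromosome 3, from 6 to 58 counts in a library. The part of counting noise in these SDs was not tested.

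In both species the number of the 10 genes above the species mean differed between libraries, where 48.9% to 52.7% of all tested genes lay above it in any library. In rhesus macaque, replicates 2, 3 and 5 lay above the mean in 8, 9 and 7 genes and replicates 1, 4 and 6 below it in 7, 9 and 7, and each set held both sexes. In chimpanzee, replicates 3, 4 and 6 lay above the species mean in 9, 8 and 8 of the 10 genes, with median deviations of 0.33, 0.38 and 0.59 on the log2 CPM scale. Replicates 1, 2 and 5 lay below it in 9, 7 and 6 genes. Here the first 3 libraries are the females and the other 3 the males. Female minus male log2 fold changes were above 0 in 10 of the 10 genes in chimpanzee, with a median of 0.71, where 47.2% of all tested genes were above 0. In rhesus macaque 2 of the 10 were above 0, with a median of -0.25, where 46.4% of all tested genes were. The 10 genes were measured in the same libraries, so they are not 10 independent observations of a sex difference. The summed share was 0.437% to 0.503% in chimpanzee females and 0.337% to 0.370% in males. In rhesus macaque it was 0.208% to 0.353% in the 2 females and 0.268% to 0.387% in the 4 males.

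No sex difference passed for any of the 10 genes in either species (edgeR quasi-likelihood test with 4 groups, adjusted over 9440 genes), and DESeq2's Wald test also called 0. Over all tested genes edgeR called 0.00% in each species. Of the 10 genes, 3 in chimpanzee and 0 in rhesus macaque had an unadjusted p under 0.05, against 7.02% and 2.20% of all tested genes. The difference of the sex effect between the species passed for 0 of the 10, with 3 at an unadjusted p under 0.05 against 5.18% of all tested genes. The chimpanzee females were also sequenced more deeply, at 2543302 to 4751954 counts against 1434241 to 2488153 in males. The part of depth in this pattern was not tested.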

How the data were processed

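Each library has 1 deposited file of raw read counts by exon, made by the authors. Its exon names give gene identifier, exon number, chromosome and bounds, and an exon missing from a file was taken as 0. Per the labels' protocols, RNA came from a Qiagen RNeasy kit and libraries were amplified by PCR and read on a Genome Analyzer II. No step given marks strand. No source used here gives the aligner, the counting tool, the build or how exons were matched between species. Libraries were grouped by the species in the labels, and replicate numbers pair nothing.

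Exon counts were summed per gene. Species were compared with edgeR 4.0.16 (limma 3.58.1, R 4.3.3; quasi-likelihood test, TMM, species as the only term) on genes with a minimum count of 10 in at least 6 libraries, adjusted by the Benjamini-Hochberg method at 0.05. Exons needed 10 counts over all libraries. SE is the log2 fold change divided by the root of F. DESeq2 1.42.0 was an alternative.

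All counted genes of the list are described. Lowest, median and highest library values are given by a rule: genes beyond 2-fold, the highest and the least different. They are also given for the other called genes. For the gene at 0 in a species, counts are given. The list and the tests were chosen with earlier results of these data known. Lists of B cell, T cell and monocyte markers, other translation genes and ribosome assembly genes need names and were not run. The edgeR and DESeq2 species tests, glmTreat, the chimpanzee sex contrast, the Simes exon usage test and the exon-level test were tried on simulated data. Other steps were not.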

Additional observations from a re-analysis of the deposited data

Results flagged for a closer look

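Within each species, the highest or lowest of the 6 libraries was compared with the rest for each of the 18 genes and for their sum, 37 sets of values in all. A library was set apart where its gap to the nearest other library, over the whole range, exceeded Dixon's 95% critical value. Chance gives this for about 1 in 20 sets of normally distributed values, which CPM from a few counts are not. It was met 4 times, each time in a gene with low counts, so no excess over chance can be read from it. The 89-base exon on chromosome 3 stood at 22.0 CPM in chimpanzee replicate 6, against 0 to 4.10 CPM in the other 5 chimpanzee libraries. The same exon stood at 1.83 CPM in rhesus macaque replicate 1, against 0.264 to 0.646 CPM in the others, where 1.83 CPM is 3 counts. The 234-base exon on chromosome 22 stood at 4.76 CPM in rhesus macaque replicate 6, against 0.499 to 1.59 CPM. The 91-base exon on chromosome 17 stood at 0.793 CPM in rhesus macaque replicate 5, which is 3 counts, against 0 to 0.216 CPM.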

How the results depend on the processing

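Apart from the 122-base exon on chromosome 19, every tested gene kept its direction and its side of the threshold under all settings that gave it a value: other scalings, filters and exon sets, thinned counts, sex as a term, males only, DESeq2 and fits without 1 library. That exon lost its call in 10 of 25 fits (adjusted p 0.00989 to 0.0912 over them), among them thinned counts (-0.79 on the log2 scale) and a fit chosen after earlier results were seen, without chimpanzee replicate 1 and rhesus macaque replicates 5 and 6 (-0.69). For ENSG00000105193 and ENSG00000171863, which entered the test through 1 species, the side of the threshold is a description only. No gene of the list could be tested without its strongest exon. With males only, 2762 genes of the series passed, against 4558, and the fold of 4 genes moved by over 1.5 times, on the log2 scale from -3.21 to -4.56 for ENSG00000186468, from -9.02 to -9.70 for ENSG00000171863, from -0.74 to -1.89 for the 136-base exon on chromosome 3 and from -0.30 to -0.91 for the 151-base exon on chromosome 1, the last 2 without a call (edgeR adjusted p = 0.0800 and 0.0573). Without the 3 libraries named above, that of ENSG00000137154 moved from 7.07 to 7.72. On total counts the median of all tested genes was 0.13 on the log2 scale, against 0.04.

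Without 1 library, the number of ribosomal protein genes called ran from 5 to 6 and those beyond 2-fold stayed at 4. With no filter on low counts they were 8 and 5 of 18 tested, and with a minimum count of 50 they were 5 and 3 of 8. The exons called ran from 7 to 8, and the genes of the series called ran from 4222 to 4801. The summed share ran from 0.390% to 0.423% in chimpanzee and from 0.295% to 0.330% in rhesus macaque; without the gene with most counts it was 0.255% in chimpanzee. The median SD ran from 0.40 to 0.61 and from 0.44 to 0.58. The 86-base exon on chromosome 3, at 0.22 on the log2 scale with no call, turned to -0.021 without chimpanzee replicate 6 and -0.025 without rhesus macaque replicate 6; the cause was not tested. Counts were too few for a test of 8 genes at this depth.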
